A study of Homo sapiens with 2 samples.

Results

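miR-532-5p, miR-500a-3p, miR-362-5p and miR-660-5p are 4 mature miRNAs cut from hairpins in a single intron of CLCN5, a gene on chromosome X for an endosomal chloride and proton exchanger. They were taken by name from the 2038 mature miRNA names listed for FaDu, a squamous carcinoma line of the hypopharynx that the labels spell FadU. Small RNA had been sequenced from 2 libraries, 1 per group. The parental group was grown in RPMI-1640 with 10% FBS, and the sphere group in tumor sphere medium, which is DMEM-F12 to which N2 Plus Supplement, recombinant bFGF (10 ng/ml) and EGF (10 ng/ml) were added. Both media held 1% penicillin-streptomycin. The labels describe the sphere cells as sphere-derived cancer stem cells, and medium, serum, growth factors and growth form cannot be told apart. No value below has a replicate check.

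The hairpins of this intron are transcribed as part of a longer RNA and cut out by Drosha, and Dicer then frees a 5p and a 3p arm from each. Usually 1 arm is kept in an Argonaute protein, where bases 2 to 8, the seed, choose the target mRNAs. Several hairpins of the cluster are similar in sequence. In carcinoma, miR-532-5p has been studied as a repressor of RUNX3, miR-362-5p and miR-500a of CYLD, a brake on NF-kB signalling, and miR-660-5p of MDM2, which degrades p53. None of these targets was measured here.

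RefSeq (GRCh38.p14) places 8 hairpins on the plus strand within 11536 bases of chromosome X, from 50003148 to 50014683. In the 3 GENCODE 29 transcripts of CLCN5 that span the site, all 8 lie in the intron from 49925315 to 50042315, which is between exons 3 and 4 of CLCN5-202 and CLCN5-203 and between exons 2 and 3 of CLCN5-205. The miR-532 hairpin comes first, at 50003148 to 50003238, and miR-188 follows 264 bases later. After a gap of 4842 bases come miR-500a (50008431 to 50008514), miR-362 (50008964 to 50009028), miR-501 and miR-500b. miR-660 (50013241 to 50013337) and miR-502 close the series.

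RefSeq gave mature sequences for 3 of the 4 miRNAs. They are shown with those of miR-501-3p and miR-502-3p, their 2 abundant neighbours, which are similar in sequence to miR-500a-3p. The seed is in capitals, and each is written 5′ to 3′.
miR-532-5p: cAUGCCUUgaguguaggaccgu
miR-362-5p: aAUCCUUGgaaccuaggugugagu
miR-500a-3p: aUGCACCUgggcaaggauucug
miR-501-3p: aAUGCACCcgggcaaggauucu
miR-502-3p: aAUGCACCugggcaaggauuca

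The 3 seeds of miR-532-5p, miR-362-5p and miR-500a-3p all differ. Among the RefSeq mature sequences, none other carried the seed of miR-532-5p or of miR-500a-3p, and 1 other, miR-500b-5p, carried that of miR-362-5p. miR-501-3p and miR-502-3p shared a seed with each other and with no further miRNA. They differed by C9U and U22A, counted from 1 at the 5′ end with the base of miR-501-3p first. miR-500a-3p and miR-502-3p had a run of 20 bases in common, set off by 1 base, so that their seeds are shifted. The longest run that miR-532-5p had in common with miR-500a-3p was 4 bases. How reads that fit more than 1 of miR-500a-3p, miR-501-3p and miR-502-3p were divided among them was not tested.

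The arms sit in hairpins whose 5′ and 3′ sides pair. The 3 hairpins of the miRNAs shown above are given with both mature arms in capitals, to show which arm each value belongs to.
miR-532: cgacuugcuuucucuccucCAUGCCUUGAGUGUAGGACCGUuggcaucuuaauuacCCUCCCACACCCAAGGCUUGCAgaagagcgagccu
miR-500a: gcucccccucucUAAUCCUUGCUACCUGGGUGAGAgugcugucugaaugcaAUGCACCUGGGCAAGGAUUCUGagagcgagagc
miR-362: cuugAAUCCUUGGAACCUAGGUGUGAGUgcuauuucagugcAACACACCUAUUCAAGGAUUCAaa

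Each library lists an RPKM (reads per kilobase and 1000000 reads) per name, which is a level per length. The RPKM column summed to 26530004 in parental cells and to 5509071 in spheres, 4.82 times less, so values are given as deposited and as shares, in ppm, which is RPKM per 1000000 of the column sum. Taking the commonest value of each library as 1 read on 22 nt, about 4542489 reads lay on miRNAs in parental cells and about 682359 in spheres, 58.4% and 12.1% of the reads behind the RPKM. The 95% intervals below apply the exact (Clopper-Pearson) formula to such estimated reads, which are not all whole numbers. The intervals leave out all error but that of counting. Reads copied by PCR do not stand for separate molecules, so even the counting error may be understated. Of the 33 names fixed as cell type markers, all 8 epithelial ones were measured, with sums of 4.04% of the miRNA signal in parental cells and 9.54% in spheres. Of these 8, 3 were at least 2-fold higher as a share, while miR-205-5p and miR-200b-3p had lower values in spheres. Of the 25 markers of other cells (blood, liver, muscle, neural, endothelial and mesenchymal), 8 were measured and 5 were listed at 0 in both libraries, among them miR-122-5p of liver and miR-124-3p of neurons. The 25 summed to 0.469% and 0.396%, with lists that went different ways. The blood markers summed to 745 ppm in parental cells and 241 ppm in spheres, the endothelial ones to 192 and 445 ppm, the muscle ones to 2.05 and 17.9 ppm, the mesenchymal ones to 3053 and 2569 ppm and the neural ones to 693 and 684 ppm. The blood sum was mostly miR-486-5p (741 and 207 ppm). Of the other blood markers, miR-451a, miR-142-5p, miR-142-3p and miR-150-5p had higher shares in spheres. miR-223-3p was lower there, and miR-144-3p was at 0 in both. The mesenchymal sum was mostly miR-10b-5p (3024 and 2493 ppm), and every other mesenchymal marker had a higher share in spheres. The part of these markers in the results, and that of the smaller miRNA fraction in spheres, was not tested. Fewer cells of a type and less RNA per cell cannot be told apart in such libraries.

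miR-532-5p, the most abundant of the 4, had 8202 RPKM in the parental library and 3517 RPKM in the spheres. As a share this was 309 ppm in parental cells and 638 ppm in spheres. The share was thus 2.06-fold higher in spheres (95% counting interval 1.85 to 2.30), while the deposited value was 2.33 times lower (2.09 to 2.60). The direction depends on what the value is taken relative to.

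miR-660-5p had 2272 RPKM in parental cells and 1477 RPKM in spheres, or 85.6 and 268 ppm. Its share was 3.13-fold higher in spheres (2.61 to 3.74), the largest fold of the 4, and its deposited value 1.54 times lower (1.29 to 1.84). About 389 parental and 183 sphere reads stood behind it. miR-362-5p had nearly the same values, 2329 and 1389 RPKM, or 87.8 and 252 ppm. Its share was 2.87-fold higher (2.39 to 3.44) and its deposited value 1.68 times lower (1.40 to 2.02).

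miR-500a-3p went apart from these. Its RPKM was 3055 in the parental library and 488 in the spheres, or 115 and 88.5 ppm. Its share was 1.30 times lower in spheres, with an interval of 0.995 to 1.73 that held equality. Its deposited value was 6.26 times lower (4.79 to 8.32). It rested on about 523 parental and 60.4 sphere reads.

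**Figure D1:**
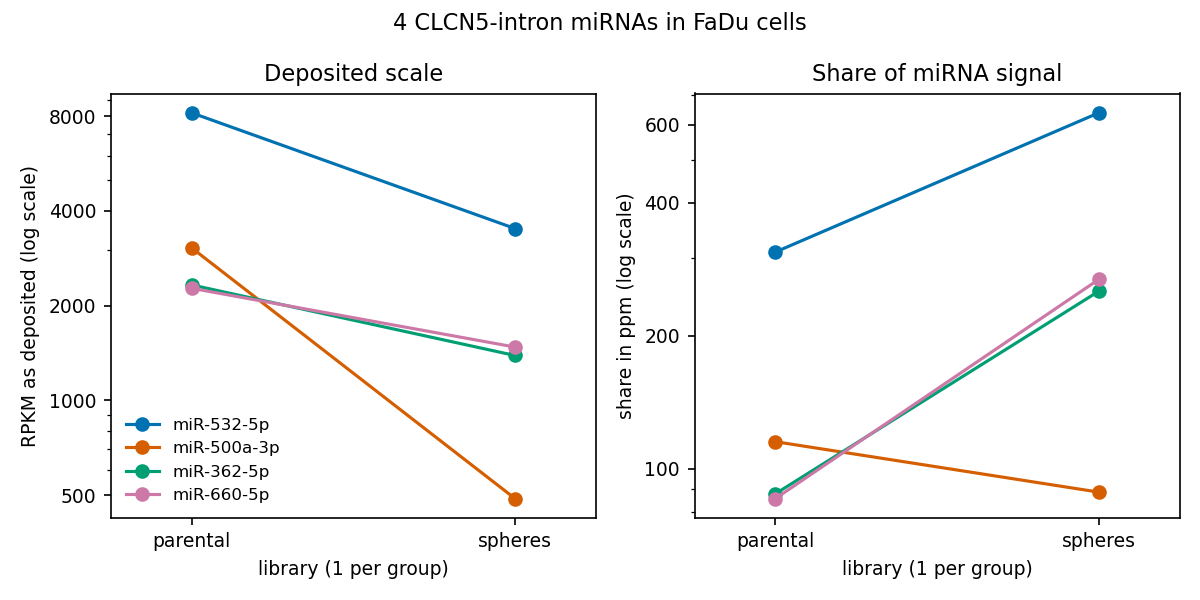
The 4 miRNAs in the parental and the sphere library (x axis, 1 library per group), as deposited RPKM (left, log scale) and in ppm of the RPKM column sum (right, log scale). All 4 lines go down on the left, while on the right only that of miR-500a-3p goes down, from 115 to 88.5 ppm.

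Against a 2-fold rule on the share, 3 of the 4 were higher in spheres and none lower. Of the 269 miRNAs counted as measured (a mean of at least 10 ppm over both libraries), 23.0% were at least 2-fold higher and 19.0% at least 2-fold lower. The whole interval lay above 2-fold for 2 of the 4, miR-362-5p and miR-660-5p, against 16.7% of all measured miRNAs. miR-532-5p stood at the edge of the rule: its log2 fold of 1.04 became 0.82 with upper quartile scaling and 0.95 when the most abundant miRNAs were left out of the sum, and the call ended under both. On the deposited scale none of the 4 was at least 2-fold higher, against 6.32% of measured miRNAs. There 2 of the 4 were at least 2-fold lower, miR-532-5p and miR-500a-3p, against 79.6%.

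Summed, the 4 miRNAs took 0.0598% of the parental and 0.125% of the sphere miRNA signal, a 2.09-fold higher share (1.93 to 2.25). The same sum was 2.31 times lower as deposited (2.14 to 2.50). With upper quartile scaling the log2 fold of the sum was 0.84 in place of 1.06, and it was 0.96 without the most abundant miRNAs, so that neither reached 2-fold. All 15 names of the cluster summed to 745 ppm in parental cells and 1394 ppm in spheres, 1.87-fold higher (1.74 to 2.01) and under the 2-fold rule. The 11 names other than these 4 summed to 147.1 and 146.8 ppm, a ratio of 0.998 (0.801 to 1.23).

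The make-up of the 4 within each library does not depend on the scaling. miR-532-5p supplied 51.7% of their summed RPKM in parental cells (49.8% to 53.6%) and 51.2% in spheres (47.8% to 54.6%), so its part differed by less than the counting error. miR-500a-3p supplied 19.3% in parental cells (17.8% to 20.8%) and 7.10% in spheres (5.47% to 9.04%). miR-362-5p supplied 14.7% (13.4% to 16.1%) and 20.2% (17.6% to 23.1%). For miR-660-5p the parts were 14.3% (13.03% to 15.7%) and 21.5% (18.8% to 24.4%). The order in parental cells was therefore miR-532-5p, miR-500a-3p, miR-362-5p and miR-660-5p, and the last 2 overlapped in their intervals. In spheres miR-660-5p and miR-362-5p, again overlapping, stood above miR-500a-3p.

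**Figure D2:**
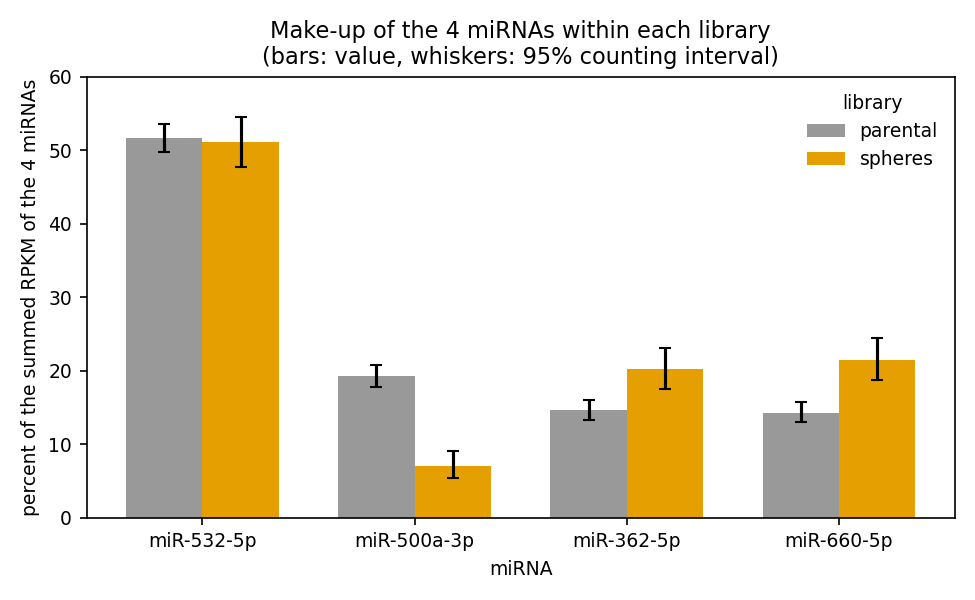
Percent of the summed RPKM of the 4 miRNAs (y axis) that each supplied in the parental and the sphere library; whiskers are 95% Clopper-Pearson intervals of estimated reads. The bars of miR-532-5p are nearly level at 51.7% and 51.2%, while that of miR-500a-3p goes from 19.3% to 7.10%.

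Ratios between the 4 give the same data pair by pair. There were 4.07 times more of miR-660-5p per miR-500a-3p in spheres than in parental cells, since their RPKM ratio was 0.744 in parental cells and 3.03 in spheres. The difference in log2 fold was 2.03 (95% interval, normal approximation, 1.57 to 2.49). For miR-362-5p against miR-500a-3p it was 1.90 (1.44 to 2.36), and for miR-532-5p against miR-500a-3p 1.43 (1.01 to 1.84). miR-660-5p and miR-362-5p also exceeded miR-532-5p, by 0.60 (0.30 to 0.90) and 0.48 (0.18 to 0.78). Only the difference between miR-660-5p and miR-362-5p, 0.12, had an interval that held 0 (-0.24 to 0.49). Of the 6 pairs, 5 thus differed beyond counting error between these 2 libraries, by intervals not adjusted for the number of pairs, which says nothing of the spread between cultures.

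The whole cluster is listed under 15 names, miR-500b without an arm. Of these, 6 were measured, the 4 miRNAs above and miR-501-3p and miR-502-3p, whose sequences are given above. miR-501-3p had 1851 RPKM in parental cells and 361 RPKM in spheres, or 69.8 and 65.6 ppm. Its share was 1.06 times lower in spheres, within counting error (0.776 to 1.49). miR-502-3p, which shares its seed, had 1514 and 267 RPKM, or 57.1 and 48.5 ppm, 1.18 times lower as a share (0.818 to 1.75). Both were more than 5 times lower as deposited, by 5.12 (3.74 to 7.17) and 5.67 times (3.94 to 8.40).

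With miR-500a-3p, these were the 3 measured 3p arms, and all 3 lay within 2-fold as a share. The 3 measured 5p arms, miR-532-5p, miR-362-5p and miR-660-5p, were all at least 2-fold higher. This grouping by arm was made after the values were seen and has no test. Only the more abundant arm of each hairpin was measured, so arm and hairpin cannot be told apart. Among the 15 pairs of the 6 miRNAs, 4 had an interval of the difference that held 0: the 3 pairs among the 3p arms, and miR-660-5p with miR-362-5p. The other 11 included every pair of a 5p with a 3p arm, for which the differences in log2 fold ran from 1.13 (miR-532-5p over miR-501-3p) to 2.03. Summed, the 3 related 3p arms went from 242 to 203 ppm, 1.19 times lower, with an interval of 0.9996 to 1.44 that held equality. This sum does not depend on how reads were divided among these 3 arms. The pair intervals with any of these arms do, since each arm's reads are taken as separate counts. Division of reads with other names was not tested, and the summed estimated reads, 1099.08 and 138.28, were not whole numbers. Counted over the cluster, 3 of 6 were at least 2-fold higher and none lower, against 23.0% and 19.0% of all measured miRNAs. By the whole interval, with upper quartile scaling, or without the most abundant miRNAs, 2 of the 6 were higher. Of the 269 measured miRNAs, 45, 55 and 56 were higher under these settings, in the same order.

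**Figure D3:**
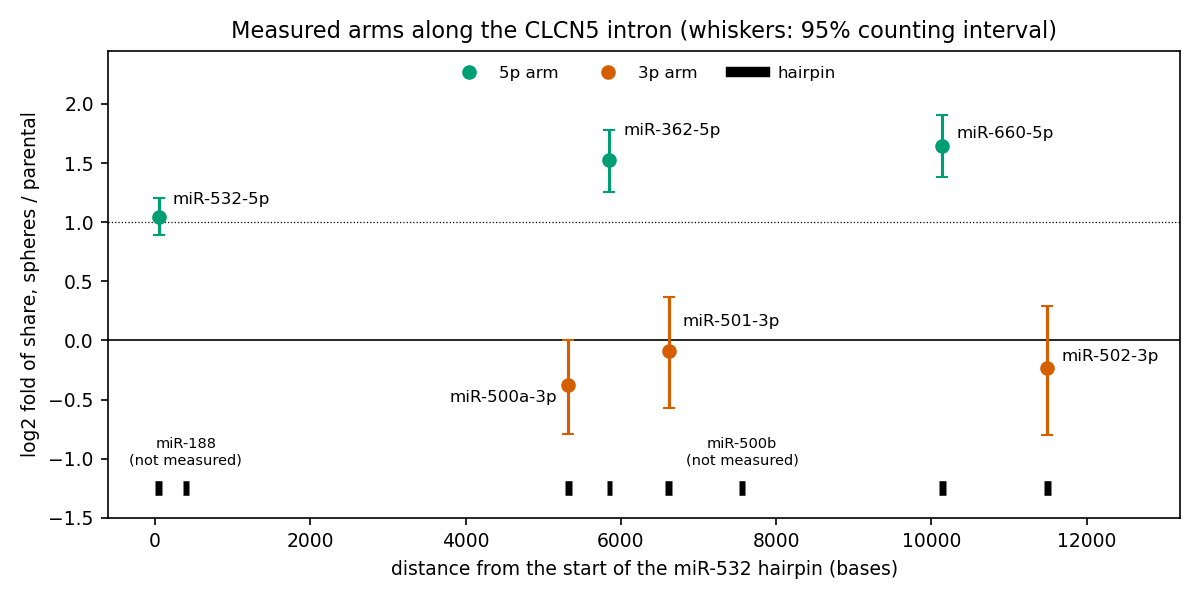
Log2 fold of the share, spheres over parental, of the 6 measured arms (y axis) by distance in bases of their hairpin from the start of the miR-532 hairpin (x axis), with 95% counting intervals. The 5p arms of miR-532, miR-362 and miR-660 lie at or above 1.04 and the 3p arms of miR-500a, miR-501 and miR-502, interspersed with them, below 0. Only the more abundant arm of each hairpin was measured, so arm and hairpin cannot be told apart.

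High and low arms alternated along the intron. miR-500a and miR-362 are 449 bases apart, and a further 693 bases separate miR-362 from miR-501. The log2 fold of miR-362-5p exceeded that of miR-500a-3p on its left by 1.90 and that of miR-501-3p on its right by 1.61 (1.09 to 2.13).

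The opposite arms were scarce in both libraries. miR-532-5p made up 97.8% of the RPKM of its hairpin in parental cells (96.9% to 98.5%) and 99.4% in spheres (98.2% to 99.9%). miR-532-3p had 184 RPKM in parental cells and 20.2 RPKM in spheres, about 31.5 and 2.50 reads. For miR-362 the 5p arm made up 98.3% (96.5% to 99.3%) and 97.2% (93.5% to 99.1%), with miR-362-3p at 40.9 and 40.4 RPKM. miR-660-3p, listed at 0 in the parental library, had about 1 read in spheres. The interval of the parental share of miR-660-5p began at 99.1%.

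In the miR-500a hairpin the balance is turned round, with the 3p arm at 97.2% in parental cells (95.5% to 98.5%) and 95.5% in spheres (87.1% to 99.1%). miR-501 and miR-502 were alike, their 3p arms at 96.6% and 97.2% in parental cells and 95.7% and 94.0% in spheres. In each of these 6 hairpins the same arm was the more abundant one in both libraries, and the intervals of the 2 libraries overlapped.

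Of the 9 names that were not measured, the highest share was 7.33 ppm, for miR-362-3p in spheres. In spheres 7 of the 9 lay at or under 3 reads (24.2 RPKM), the limit that a value of 0 allows. miR-188-5p had 18.4 RPKM in parental cells and 16.9 RPKM in spheres, about 3 and 2 reads, and miR-188-3p 6.12 and 8.46 RPKM, about 1 read in each. The miR-188 hairpin lies next to that of miR-532, the most abundant of the cluster. miR-500a-5p had 86.6 and 23.2 RPKM, miR-501-5p 64.2 and 16.1 RPKM, and miR-502-5p 42.8 and 16.9 RPKM. The name miR-500b had 96.4 and 29.6 RPKM. At these read numbers the interval of each fold of the share held 1, apart from miR-362-3p (4.76-fold higher as a share, 1.19 to 17.4), which had about 7 parental and 5 sphere reads. miR-532-3p had an interval from 11.9 times lower to 1.84-fold higher.

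By RPKM miR-532-5p ranked 85 of the 2038 names in parental cells and 69 in spheres. miR-660-5p moved from rank 132 to 96, miR-362-5p from 130 to 97, and miR-500a-3p from 122 to 131.

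**Figure D4:**
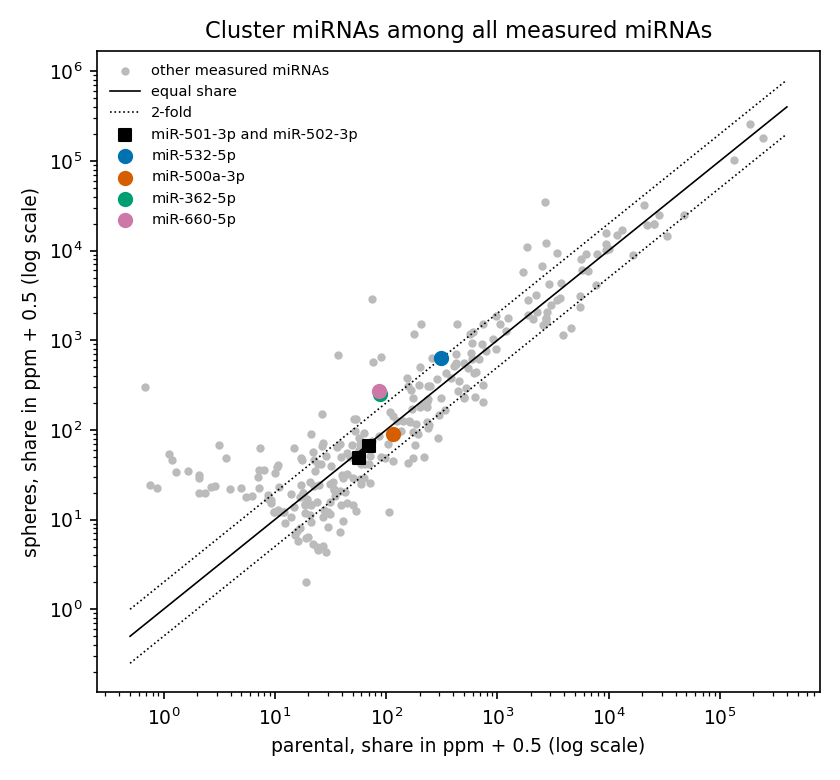
Share in the sphere library (y axis) against the parental library (x axis), both in ppm plus 0.5 on log scales, for the 269 measured miRNAs. miR-362-5p and miR-660-5p nearly coincide above the dotted 2-fold line, miR-532-5p lies on it, and miR-500a-3p lies just below equal shares with miR-501-3p and miR-502-3p.

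The miRNAs outside the cluster that were most like each of the 4 were found by the distance between log2 shares over the 2 libraries, which describes level and fold together. miR-5701 was nearest to miR-532-5p (distance 0.25), at 259 and 631 ppm, followed by miR-181d and miR-29b-3p. let-7b-3p was nearest to miR-500a-3p (0.27), at 135 and 97.1 ppm, ahead of miR-589-5p and miR-197-3p. miR-362-5p and miR-660-5p had no such close neighbour outside the cluster. For both, the nearest was miR-15a-5p, at 107 and 158 ppm and distances of 0.73 and 0.83, and next came miR-23b-3p. The third was miR-19a-3p for miR-362-5p and miR-1307-3p for miR-660-5p.

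Lists of 2 kinds set the cluster beside miRNAs of similar origin. Of 24 measured names listed for other X-linked miRNAs, 2 were at least 2-fold higher as a share, 4 lower and 18 within 2-fold. Their median log2 fold was -0.32. They ran from miR-221-3p, 3403 and 9421 ppm and 2.77-fold higher (2.69 to 2.85), to miR-222-5p, 30.6 and 11.0 ppm and 2.78 times lower (1.35 to 6.79). Of 38 measured names from introns of other protein-coding genes, 6 were higher, 6 lower and 26 within 2-fold, with a median of -0.23. miR-107, from an intron of PANK1, was the highest at 437 and 1532 ppm, 3.51-fold (3.25 to 3.78), and miR-25-5p, from MCM7, the lowest at 105 and 11.5 ppm, 9.13 times lower (4.57 to 21.5) on 7.86 estimated sphere reads. The median was 0.48 over the 6 measured miRNAs of the CLCN5 cluster and 0.02 over all 269. None of the 6 lay near 0.48, which falls between the 5p arms, at 1.04 or more, and the 3p arms, at -0.09 or less. On the deposited scale these 4 medians were -2.59, -2.50, -1.79 and -2.25. Among the X-linked names, let-7f, miR-19b and miR-92a are also encoded on other chromosomes. All arms of each name were taken, which lets in arms that come only from those other copies. An example is miR-92a-1-5p (42.3 and 19.6 ppm, 2.16 times lower as a share), from the copy outside chromosome X. The lists overlap, since miR-361, miR-652, miR-224 and miR-452 stand in both. None of these differences between lists was tested.

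A scaling moves all miRNAs of a library alike, so it sets the sign of a fold and its side of the 2-fold line but cannot alter the order of the 6 miRNAs. The lowest 5p arm and the highest 3p arm had log2 folds of 1.04 and -0.09 as shares, 0.82 and -0.31 with upper quartile scaling, and -1.22 and -2.35 as deposited.

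**Figure D5:**
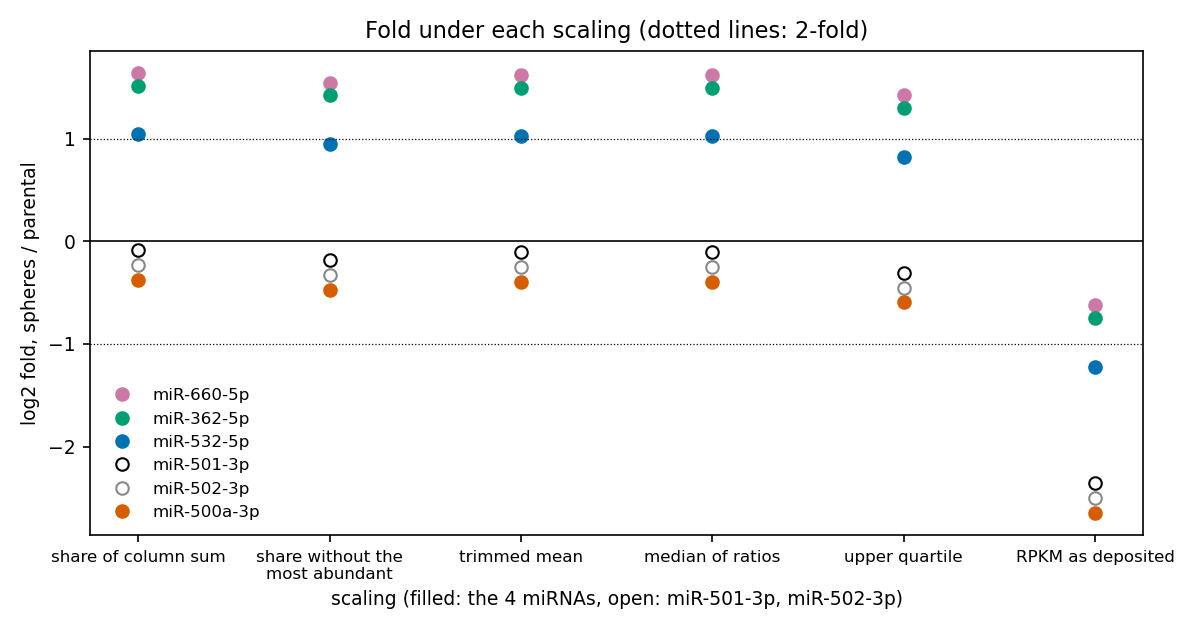
Log2 fold, spheres over parental (y axis), of the 6 measured cluster miRNAs under 6 scalings (x axis), with dotted lines at 2-fold. The columns are shifted copies of each other: miR-532-5p is above the upper 2-fold line at 1.04 as a share and under it at 0.82 with the upper quartile, and all 6 miRNAs lie below 0 for RPKM as deposited.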

How the data were processed

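Per the labels' protocols, 1 µg of total RNA per sample went into TruSeq libraries for small RNA, which were size fractionated. The authors deposited 1 RPKM value per mature miRNA name and library, per the file headers, with no counts. The submitters' processing notes name hg19. For the aligner, the annotation release and the handling of reads with several matches, the sources used here say nothing. Shares (ppm) are RPKM per 1000000 of the column sum. Log2 folds compare shares in spheres and parental cells after adding 0.5, which understates changes of low miRNAs; folds printed with intervals are plain ratios. On the deposited scale, 0.5 RPKM was added. Estimated reads are RPKM over the commonest value of the library (5.84 and 8.07 RPKM), taken as 1 read on 22 nt. A called difference is at least 2-fold; with 1 library per group there is no test.

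The 4 miRNAs and the lists were chosen with earlier results of these data known. The miRNAs named are these 4, all names of the cluster, the 3 nearest miRNAs of each by log2 share and the ends of each list. Some cell type markers and list members are named as well. Of the 15 cluster names, 13 matched a RefSeq mature sequence (GRCh38.p14). Python 3.11.15, numpy 2.4.6, pandas 2.3.3, scipy 1.17.1 and matplotlib 3.10.9 were used, and the steps were tested on simulated data.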

Additional observations from a re-analysis of the deposited data

How the results depend on the processing

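RPKM as deposited reversed 4 folds: the log2 fold was -1.22 for miR-532-5p, -0.75 for miR-362-5p, -0.62 for miR-660-5p and -1.21 for the summed 4, and it was -2.65 for miR-500a-3p. By construction it shifts log2 folds by -2.27, and by other amounts where values are near the pseudocount. It gave 0 higher and 2 lower of the 4, 0 higher and 4 lower of the 6 in the cluster, and 17 higher and 214 lower of all measured. Upper quartile scaling gave 0.82 for miR-532-5p and 0.84 for the sum, and leaving out the most abundant miRNAs gave 0.95 and 0.96. Both left 2 of the 4 at least 2-fold higher, against 55 and 56 of the 269 measured miRNAs. The median of ratios, the trimmed mean, a pseudocount of 5 and the sum of both arms kept every 2-fold call of the 4. With no filter 7 of the 15 cluster names were higher. Of all names above 0 in either library (903 in parental cells and 672 in spheres), 193 were higher and 180 lower. The cluster names so added, miR-188-5p, miR-188-3p, miR-362-3p and miR-660-3p, had about 1 to 5 sphere reads. Their intervals held 1, apart from that of miR-362-3p. At a mean of 100 ppm, 23 of all miRNAs were higher and 18 lower, since fewer miRNAs enter. In the cluster, 3 were higher and 0 lower at that limit. The number of all names entering under these 2 filters was not counted, so no percent stands beside the cluster. Asking for the whole interval, added after seeing the data for all miRNAs, left 45 higher and 17 lower. No paired analysis was possible because each group has 1 library, and no replicate could be left out. Read length for miR-660-5p was kept at 22 nt.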

Other observations

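The estimated reads of the cluster were not all whole numbers. Scaled to the length of the mature sequence (22 nt for miR-660-5p and miR-500b), 7 of the 14 names above 0 in parental cells and 8 of 15 in spheres came within 0.01 of a whole read. miR-660-5p was whole in both libraries, at 389 and 183 reads, as were miR-362-3p (7 and 5) and miR-501-5p (11 and 2). miR-362-5p was whole in parental cells, at 435 reads, and had 187.7 in spheres. The 6 names that were whole in neither were miR-532-5p, miR-532-3p, miR-500a-3p, miR-501-3p, miR-502-3p and miR-500b. The RefSeq arms of miR-500b are 18 and 20 nt long, and its name gives no arm. Its place here and in the counts above therefore depends on the 22 nt taken. miR-500a-5p, whose sequence holds all 18 bases of miR-500b-5p, had 15.5 reads in parental cells.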
